A study of Populus tremula x Populus alba with 72 samples.

Results

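Transcripts of the shikimate ester shunt of lignin synthesis were followed in leaves of hybrid poplar through 5 genes, taken by identifier out of the 34699 genes of the deposited table. They were HCT1 (Potri.003G183900), HCT6 (Potri.001G042900), C3H3 (Potri.006G033300), CSE1 (Potri.003G059200) and CSE2 (Potri.001G175000). The names are those in use for poplar lignin genes, while the table itself holds identifiers only. All 5 passed the filter on low values, which left 27780 genes for testing.

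Lignin monomers are built from phenylalanine, and the shunt is the stretch of that pathway on which the aromatic ring gains its next hydroxyl group while it is tied to shikimate. HCT, a hydroxycinnamoyl transferase, moves the coumaroyl group from coenzyme A onto shikimate. C3H, a cytochrome P450 of the CYP98 family, hydroxylates that ester to caffeoyl shikimate, and CSE, an esterase, splits it into caffeic acid and shikimate. The products feed the guaiacyl and syringyl units of lignin, which in leaves is laid down mainly in the xylem of the veins.

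Messenger RNA came from leaves of 2 positions, growing and expanded, on young trees of clone INRAE 717-1B4 (Populus tremula x alba), so that all groups share a single genotype. The trees stood in charcoal-filtered air with 100 ppb ozone, in the same air with 80 ppb ozone, or in that air without added ozone (control), and were sampled on days 2, 8 and 13. This gave 18 groups of 4 libraries. What a replicate number marks, be it a tree, a chamber or an extract, is not in the labels, so each p-value rests on the spread among libraries alone, and that spread may be technical. In bulk leaf RNA, fewer cells of a type and less RNA per cell cannot be told apart.

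Sequencing depth ranged over the 72 libraries from 23.2 M to 54.3 M reads within genes (M, mega). Between 97 reads (HCT6) and 5829 reads (C3H3) lay behind a single value of a member. Levels are normalised read counts (reads divided by a size factor per library) and are compared within a gene, not between genes, because they are not corrected for transcript length. Changes are log2 differences ± standard error on the scale of the count plus 1, from limma with Benjamini-Hochberg adjustment over all tested genes, called at an adjusted p under 0.05. None of the sources used here says how reads that match more than 1 gene were counted, so the split between similar copies such as HCT1 and HCT6, or CSE1 and CSE2, is uncertain.

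The first comparison set growing against expanded leaves without added ozone, since the study asks how ozone-responsive genes behave during leaf development. On day 2 HCT1, C3H3 and CSE2 were lower in growing than in expanded leaves. On day 13 C3H3 and CSE2 were higher in growing leaves, as was HCT6.

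The acyltransferase gene HCT1 climbed over the days in growing leaves. Control growing leaves held 617, 583, 585 and 692 normalised reads of HCT1 on day 2, then 869, 1103, 1002 and 858 on day 8, and 1969, 1940, 1978 and 1878 on day 13. Control expanded leaves held 1171, 1619, 1329 and 1616 on day 2, then 1615, 1836, 2485 and 1818 on day 8, and 1390, 1752, 1641 and 1557 on day 13. The growing leaves lay entirely below the expanded ones on days 2 and 8 and entirely above them on day 13. HCT1 was 0.435 times the expanded level in growing leaves on day 2 (log2 difference −1.20 ± 0.14, adjusted p = 9.29e-11) and 0.498 times on day 8 (−1.01 ± 0.14, adjusted p = 2.01e-08). On day 13 the difference was 0.30 ± 0.14 and did not pass the test (adjusted p = 0.111).

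The other acyltransferase gene, HCT6, took a different course. In control growing leaves it held 354, 325, 329 and 291 normalised reads on day 2, 257, 274, 234 and 235 on day 8, and 319, 439, 307 and 274 on day 13. In control expanded leaves the values were 237, 287, 328 and 276 on day 2, 214, 232, 304 and 253 on day 8, and 150, 205, 165 and 107 on day 13. Growing and expanded leaves overlapped on days 2 and 8 and stood apart on day 13, when expanded leaves were low. The day 13 level in growing leaves was 2.15 times that in expanded leaves (1.10 ± 0.20, adjusted p = 3.21e-05), whereas on days 2 and 8 the differences were 0.21 ± 0.20 (adjusted p = 0.364) and 0.00 ± 0.20 (adjusted p = 0.988).

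The hydroxylase gene C3H3 showed the widest swing between leaf positions among the 5. Control growing leaves held 1148, 888, 873 and 1136 normalised reads on day 2, 2050, 2485, 2167 and 1886 on day 8, and 3877, 4540, 4255 and 3442 on day 13. Control expanded leaves went the other way, with 2933, 3518, 3389 and 3668 on day 2, 2601, 3203, 3140 and 3155 on day 8, and 2022, 2244, 2274 and 2125 on day 13. The positions did not overlap on any day, and their order was inverted by day 13. C3H3 in growing leaves was 0.298 times the expanded level on day 2 (−1.75 ± 0.15, adjusted p = 1.17e-14) and 0.709 times on day 8 (−0.50 ± 0.15, adjusted p = 0.00516). By day 13 it was 1.85 times that level (0.89 ± 0.15, adjusted p = 1.67e-05).

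The esterase genes took opposite sides on day 2. CSE1 held 478, 702, 399 and 450 normalised reads in control growing leaves on day 2, against 309, 373, 343 and 414 in expanded leaves. CSE2 held 270, 299, 215 and 248 in those growing leaves, against 418, 487, 519 and 507 in the expanded ones. CSE1 was thus higher in growing leaves of day 2, with overlap of a single expanded library (0.47 ± 0.21, adjusted p = 0.046), while CSE2 was lower with no overlap (−0.91 ± 0.21, adjusted p = 0.000235). On day 8 CSE1 was lower in growing leaves (0.595-fold, −0.75 ± 0.21, adjusted p = 0.00204), and CSE2 differed by −0.29 ± 0.21 (adjusted p = 0.256). On day 13 CSE2 was 1.51 times as high in growing as in expanded leaves (0.60 ± 0.21, adjusted p = 0.0326), and CSE1 differed by 0.16 ± 0.21 (adjusted p = 0.601).

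**Figure D1:**
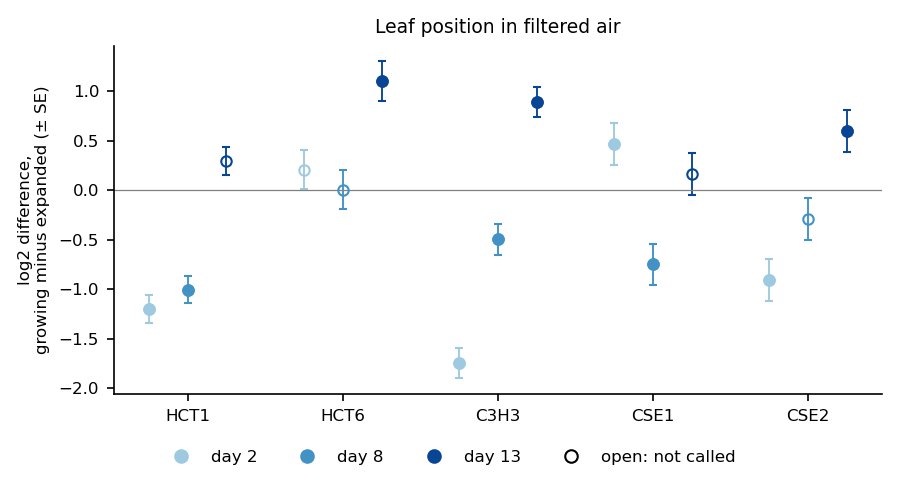
Log2 difference of each gene between growing and expanded leaves in filtered air (growing minus expanded, ± SE, 4 libraries a group) on days 2, 8 and 13, with filled points for an adjusted p under 0.05. C3H3 and CSE2 lie below 0 on day 2 and above it on day 13, where HCT6 is at 1.10.

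The plot of leaf position in filtered air sets these differences side by side. On day 2, 3 of the 5 members were lower and 1 was higher in growing leaves, against 30.5% and 32.5% of all tested genes. On day 8, 3 were lower and none was higher (27.2% and 27.1% of all tested genes), and on day 13, 3 were higher and none was lower (15% and 10%). The median log2 difference of the members was −0.91, −0.50 and 0.60 on the 3 days, and that of all tested genes was 0.004, −0.019 and −0.016. Ranges of growing and expanded leaves were apart in 60.6%, 56.9% and 17.7% of all tested genes on the 3 days. The CSE1 call of day 2 was lost without growing control replicate 1 or 2 (adjusted p = 0.0604 and 0.24), without expanded control replicate 1, 2 or 3 (0.122, 0.0591 and 0.0835), without the filter and with TMM scaling, within a range of 0.0244 to 0.24. The CSE2 call of day 13 was lost without growing control replicate 1, 2 or 3 (0.0612, 0.121 and 0.0785), without expanded control replicate 1, 3 or 4 (0.0546, 0.052 and 0.105), with equal totals and with the compared libraries alone (range 0.0135 to 0.217). On day 8 CSE2 passed with equal totals (0.0236) and with the compared libraries alone (0.0492, range 0.0236 to 0.434).

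Change over time was then tested within each leaf position in filtered air. Leaf age and sampling day go together in this design, so the effects of the 2 cannot be told apart. In growing leaves HCT1, C3H3 and CSE2 were higher on day 13 than on day 2, which holds for 34.6% of all tested genes. HCT1 rose 3.14-fold (1.65 ± 0.14, adjusted p = 1.09e-15), C3H3 3.99-fold (2.00 ± 0.15, adjusted p = 3.06e-17) and CSE2 1.83-fold (0.87 ± 0.21, adjusted p = 0.000321). HCT6 differed by 0.02 ± 0.20 (adjusted p = 0.921). Both HCT1 and C3H3 were called at each step, by 0.62 ± 0.14 (adjusted p = 0.000168) and 1.09 ± 0.15 (3.83e-08) on day 8 against day 2, when 25.6% of all tested genes were higher, and by 1.03 ± 0.14 (3.27e-08) and 0.91 ± 0.15 (3.03e-06) on day 13 against day 8. HCT6 differed by −0.38 ± 0.20 (0.105) and 0.40 ± 0.20 (0.0949) at these steps, and CSE2 by 0.24 ± 0.21 (0.367) at the earlier one. HCT6 passed at both steps with equal totals (0.0304 and 0.0228) and with the compared libraries alone (0.0102 and 0.0338), within ranges of 0.0102 to 0.198 and 0.0228 to 0.323. The course of CSE1 in growing leaves was not monotonic. It fell to 229 ± 42.6 on day 8, against 507 ± 134 on day 2 (SD, n = 4; −1.13 ± 0.21, adjusted p = 9.39e-06), and was higher again on day 13, at 380.8 ± 101.1 (0.71 ± 0.21 against day 8, adjusted p = 0.00445). Of all tested genes 26.4% fell between days 2 and 8 and 21.3% rose between days 8 and 13. The call of CSE2 from day 8 to day 13 (0.63 ± 0.21, adjusted p = 0.0138) was lost without control replicate 2 of day 13 (0.0576, range 0.00377 to 0.0576), while CSE1 on day 13 against day 2 (−0.42 ± 0.21, adjusted p = 0.0702) passed without that library (0.0195) or without replicate 3 of day 2 (0.0366, range 0.0195 to 0.317).

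In expanded leaves 3 members fell over the days. On day 13 against day 2, HCT6 fell to 0.547 times its level (−0.87 ± 0.20, adjusted p = 0.000226), C3H3 to 0.643 times (−0.64 ± 0.15, adjusted p = 0.000465) and CSE2 likewise to 0.643 times (−0.64 ± 0.21, adjusted p = 0.011). Genes that fell made up 25.6% of all tested. HCT1 differed by 0.15 ± 0.14 (adjusted p = 0.369) and CSE1 by −0.11 ± 0.21 (adjusted p = 0.678). Between days 2 and 8 only HCT1 among the 5 passed, higher on day 8 (0.43 ± 0.14, adjusted p = 0.0124; 17.9% of tested genes were higher), a call lost without replicate 1 of day 2 (0.0794) or replicate 3 of day 8 (0.11, range 0.00058 to 0.11). With libraries brought to the same total, the all-gene median shifted by 0.345 between days 13 and 2. There the difference of C3H3 was −0.29 (adjusted p = 0.137) and that of CSE2 was −0.29 (adjusted p = 0.285), and HCT1 was higher by 0.50 (0.00659). HCT6 on day 13 against day 8 (−0.70 ± 0.20, adjusted p = 0.0465) kept its call in 8 of 19 alternatives (range 0.0309 to 0.34). It was lost without any of the 4 libraries of day 8 (0.0589, 0.1, 0.134 and 0.0929 for replicates 1 to 4) or without replicate 3 or 4 of day 13 (0.056 and 0.315). At this step 1.75% of all tested genes were lower, and ranges were apart in 6.05%. Ranges of HCT6 and C3H3 were apart, but neither C3H3 (−0.48 ± 0.15, adjusted p = 0.095) nor any other member besides HCT6 was called.

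Leaves at 100 ppb ozone were each tested against controls matched for position and day. In expanded leaves HCT1 was higher on days 8 and 13, and C3H3, CSE1 and CSE2 joined it on day 13. HCT6 was not called on any day.

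On day 13 expanded leaves at 100 ppb held 2828, 3470, 2821 and 2516 normalised reads of HCT1, against 1390, 1752, 1641 and 1557 in control leaves. C3H3 stood at 3115, 4791, 3995 and 2948 at 100 ppb, against 2022, 2244, 2274 and 2125 in controls. Every ozone library of both genes lay above every control library. HCT1 was 1.83 times as high (0.87 ± 0.14, adjusted p = 1.22e-06), and C3H3 was 1.68 times as high (0.75 ± 0.15, adjusted p = 7.01e-05).

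The esterase genes had the largest changes of the 5 in this comparison. CSE1 held 475, 1013, 912 and 615 normalised reads at 100 ppb, against 252, 428, 335 and 333 in control expanded leaves of day 13. CSE2 held 530, 1699, 922 and 647 at 100 ppb, against 290, 372, 314 and 269 in controls. Neither gene had an ozone library within the control range, and replicate 2 at 100 ppb was the highest library for both, as it was for HCT1 and C3H3. CSE1 rose 2.17-fold (1.12 ± 0.21, adjusted p = 1.76e-05) and CSE2 2.77-fold (1.47 ± 0.21, adjusted p = 1.94e-07), changes above those of 90% and 92.4% of all tested genes. HCT6, at 143, 164, 245 and 204 against 150, 205, 165 and 107 in controls, overlapped its control range (0.28 ± 0.20, adjusted p = 0.275). In all, 4 of 5 members rose and none fell, against 22.1% and 19% of all tested genes (41.1% in either direction), and the members' median change was 0.87, against −0.02 for all genes. Groups that do not overlap were found for 28.5% of all tested genes in this comparison. These 4 calls held in all 19 alternatives, libraries left out included. Across them the adjusted p reached at most 0.00265 for HCT1, 0.011 for C3H3, 0.0172 for CSE1 and 0.0147 for CSE2. The standard errors rest on a spread shared by all 18 groups, whereas the SD of CSE2 was 526 at 100 ppb and 44.3 in controls.

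On day 8 the libraries at 100 ppb were split. Replicates 1 and 4 held 3391 and 3382 normalised reads of HCT1 in expanded leaves, and replicates 2 and 3 held 2452 and 2728, against 1615, 1836, 2485 and 1818 in controls. HCT1 was 1.55 times as high (0.63 ± 0.14, adjusted p = 0.00134), with a single control library, replicate 3, above the lowest ozone library. The same split was seen in CSE2, with 788 and 805 in replicates 1 and 4 and 394 and 362 in replicates 2 and 3, against 325, 333, 407 and 421 in controls. It was also seen in CSE1, with 689 and 657 against 379 and 325 in the same pairs of ozone libraries. The split was not particular to these genes. Over genes at large, the chi-square per degree of freedom between libraries was 45.29 for replicates 1 and 4 and 29.38 for replicates 2 and 3. Across these pairs it was 78.24 to 194.5. CSE2 narrowly missed the threshold (0.57 ± 0.21, adjusted p = 0.0507). It passed in 9 of 19 alternatives, edgeR and DESeq2 among them (0.023 and 0.0182), and without ozone replicate 2 or 3 (0.0147 and 0.00974) or control replicate 4 (0.0492), within a range of 0.00974 to 0.28. CSE1 differed by 0.35 ± 0.21 (adjusted p = 0.233) and C3H3 by 0.13 ± 0.15 (adjusted p = 0.572).

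HCT6 was the member that pointed down on day 8. Its 154, 185, 162 and 201 normalised reads at 100 ppb all lay below the 214, 232, 304 and 253 of the controls. The difference of −0.51 ± 0.20 had an adjusted p of 0.0604, and passed by edgeR (0.0468) and DESeq2 (0.0397) but in none of the other 17 alternatives (range 0.0397 to 0.172). Thus 1 of 5 members was called on day 8, higher, when 11.2% of all tested genes were higher, 8.51% were lower, 19.7% were called in either direction and 19.1% had groups that do not overlap.

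On day 2 no member was called in expanded leaves at 100 ppb, when 8.34% of all tested genes were (4.74% higher, 3.6% lower). By unadjusted p under 0.05, HCT1 and CSE1 differed. HCT1 held 2261, 1600, 1901 and 1848 normalised reads at 100 ppb, against 1171, 1619, 1329 and 1616 in controls (0.41 ± 0.14, adjusted p = 0.0534). The groups overlapped by ozone replicate 2. It passed with equal totals (0.0428), by DESeq2 (0.0404), and without control replicate 2 (0.0377), ozone replicate 2 (0.0481) or ozone replicate 4 (0.0498), within a range of 0.0377 to 0.243. CSE1 did not overlap its controls, at 497, 609, 422 and 489 against 309, 373, 343 and 414 (0.48 ± 0.21, adjusted p = 0.137), in a comparison where 11.1% of all tested genes did not overlap. C3H3 differed by 0.27 ± 0.15 (adjusted p = 0.267), HCT6 by −0.18 ± 0.20 (0.631) and CSE2 by 0.04 ± 0.21 (0.938).

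**Figure D2:**
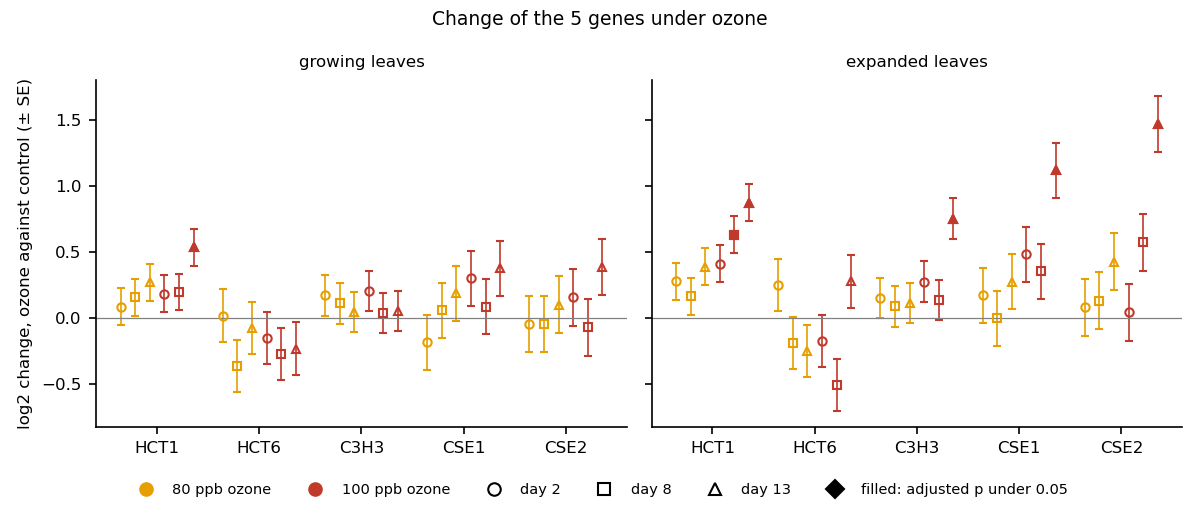
Log2 change of each gene between ozone and matched control leaves (± SE, 4 libraries a group), at 80 and 100 ppb on days 2, 8 and 13, with filled symbols for an adjusted p under 0.05. In expanded leaves at 100 ppb on day 13 the changes of HCT1, C3H3, CSE1 and CSE2 lie between 0.75 and 1.47, and HCT1 is the sole filled gene in growing leaves.

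In growing leaves HCT1 was the sole member called at 100 ppb, as the plot of ozone changes shows. On day 13 HCT1 held 2534, 3275, 3154 and 2395 normalised reads in growing leaves at 100 ppb, against 1969, 1940, 1978 and 1878 in controls. The ozone libraries all lay above the closely spaced controls, and HCT1 rose 1.45-fold (0.54 ± 0.14, adjusted p = 0.00253). That call held in all 19 alternatives (range 0.000926 to 0.0207). C3H3, which rose in expanded leaves, held 3983, 5073, 4213 and 3492 at 100 ppb in growing leaves, against 3877, 4540, 4255 and 3442 in controls, nearly the same ranges (0.05 ± 0.15, adjusted p = 0.846). CSE1 and CSE2 differed by 0.38 ± 0.21 (adjusted p = 0.183) and 0.38 ± 0.21 (0.184), and HCT6 by −0.23 ± 0.20 (0.413). So 1 of 5 members was called, against 17% of all tested genes that were higher and 11% that were lower (28% in either direction), while 26% had groups that do not overlap. On days 2 and 8 no member was called in growing leaves, and 0.054% and 0.0396% of all tested genes were (0.0252% and 0.0288% higher, 0.0288% and 0.0108% lower). None of the 5 had an unadjusted p under 0.05 on those days, and edgeR and DESeq2 called none. The members' changes there lay between −0.28 for HCT6 on day 8 and 0.30 for CSE1 on day 2.

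Whether the response to 100 ppb differed between the leaf positions was tested directly. On day 13 CSE2 responded less in growing than in expanded leaves (difference of the log2 responses, growing minus expanded, −1.08 ± 0.30, adjusted p = 0.0306). The other members pointed the same way without a call. Their differences were −0.74 ± 0.30 for CSE1 (adjusted p = 0.164), −0.70 ± 0.22 for C3H3 (0.055), −0.51 ± 0.28 for HCT6 (0.372) and −0.34 ± 0.20 for HCT1 (0.415). Of all tested genes 1.58% were called with a smaller response in growing leaves and 1.93% with a larger one. On days 2 and 8 no member was called, and 0.392% and 0.0684% of all tested genes were.

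The CSE2 difference between positions kept its call in 18 of 27 alternatives (range 0.00388 to 0.29). It was lost without growing 100 ppb replicate 1 or 4 (0.0706 and 0.0719), growing control replicate 2 or 3 (0.0767 and 0.0578), expanded 100 ppb replicate 2 or 3 (0.11 and 0.0579) or expanded control replicate 4 (0.0615), with equal totals (0.0925) and with the compared libraries alone (0.29). C3H3 passed with TMM scaling (0.0499), by edgeR (0.0381) and DESeq2 (0.0263), and without expanded 100 ppb replicate 1 or 4 (0.03 and 0.0481) or growing 100 ppb replicate 2 (0.0352), within a range of 0.0263 to 0.209. CSE1 passed without expanded 100 ppb replicate 1 (0.0468, range 0.0468 to 0.397).

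The growth of the response with time was tested as its change between days 2 and 13. In expanded leaves at 100 ppb the CSE2 response of day 13 exceeded that of day 2 by 1.43 ± 0.30 (adjusted p = 0.000867). The call held in all 27 alternatives (range 4.5e-05 to 0.0412), and 7.21% of all tested genes were called in that direction. On days 2 and 13 CSE2 averaged 500 ± 78.0 and 949.5 ± 526 normalised reads at 100 ppb, against 483 ± 45.3 and 311 ± 44.3 in controls (SD, n = 4 each). The other members changed by 0.45 to 0.64, none called (adjusted p = 0.111 to 0.293), although CSE1 (0.64 ± 0.30) passed without 100 ppb replicate 1 of day 13 (0.0477, range 0.0477 to 0.361). In growing leaves no member was called, with changes from −0.15 for C3H3 to 0.35 for HCT1, when 13.5% of all tested genes were.

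At 80 ppb no member was called on any day in either leaf position. The share of all tested genes called was 0.0108%, 0.018% and 1.75% in expanded leaves on days 2, 8 and 13, and 0%, 0% and 0.0144% in growing leaves. Higher ones made up 0.0036%, 0.0144% and 0.853% in expanded leaves, and lower ones 0.0072%, 0.0036% and 0.893%. No member's response to 80 ppb was called as different between leaf positions or between days 2 and 13. Nearly no tested gene was, with 0% between positions on each day. Between days 2 and 13 the share was 0% in expanded and 0.0036% in growing leaves. By edgeR and DESeq2 none of the 30 tests was called either, and a single one had an unadjusted p under 0.05. That was HCT1 in expanded leaves on day 13, with 2016, 2387, 2053 and 1848 normalised reads at 80 ppb, against 1390, 1752, 1641 and 1557 in controls. These groups did not overlap, as for 5.69% of all tested genes, and the difference was 0.39 ± 0.14 (unadjusted p = 0.00732, adjusted p = 0.122). CSE2 followed with 0.43 ± 0.21 (adjusted p = 0.279). HCT1 was above its control mean in all 6 comparisons at 80 ppb, by 0.08 to 0.39, and the comparisons within a day and position use the same controls as those at 100 ppb.

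Set against 80 ppb, leaves at 100 ppb stood higher in all 5 members on day 13 in expanded leaves. HCT1 was 1.40 times as high (0.48 ± 0.14, adjusted p = 0.00677), C3H3 1.56 times (0.64 ± 0.15, adjusted p = 0.00124), CSE1 1.80 times (0.85 ± 0.21, adjusted p = 0.00162) and CSE2 2.06 times (1.04 ± 0.21, adjusted p = 0.000189). Of all tested genes, 29.2% differed between the ozone levels in this comparison (16.9% higher, 12.3% lower). HCT6 was called too (0.53 ± 0.20, adjusted p = 0.0387), with 143, 164, 245 and 204 normalised reads at 100 ppb, against 121, 127, 135 and 131 at 80 ppb. Against control, however, HCT6 was not called at 100 ppb (0.28 ± 0.20, adjusted p = 0.275) or at 80 ppb (−0.25 ± 0.20, adjusted p = 0.522). On day 8 HCT1 alone was called (0.47 ± 0.14, adjusted p = 0.0318; 8.15% of all tested genes, with 5.11% higher and 3.04% lower), and on day 2 no member was (6.84%, with 4.42% higher and 2.43% lower). In growing leaves no member differed between the ozone levels on any day, and 0%, 0% and 14.9% of all tested genes did. By edgeR and DESeq2 none differed either, and CSE1 on day 2 alone had an unadjusted p under 0.05.

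Several calls between ozone levels were lost when a library was left out or when the scaling or the set of fitted libraries was changed. The HCT6 call was lost without any of the 4 libraries at 80 ppb (0.0536 to 0.0871) or 100 ppb replicate 3 or 4 (0.17 and 0.106), with equal totals (0.159) and with the compared libraries alone (0.0707, range 0.0167 to 0.17). The HCT1 call of day 8 was lost without 100 ppb replicate 1 or 4 (0.127 and 0.205) or 80 ppb replicate 1 or 2 (0.14 and 0.113), with equal totals (0.0521) and with the compared libraries alone (0.153, range 0.00908 to 0.205). On day 13 that of HCT1 was lost with equal totals (0.114, range 0.00387 to 0.114) and that of CSE2 with the compared libraries alone (0.0571, range 4.14e-06 to 0.0571).

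**Figure D3:**
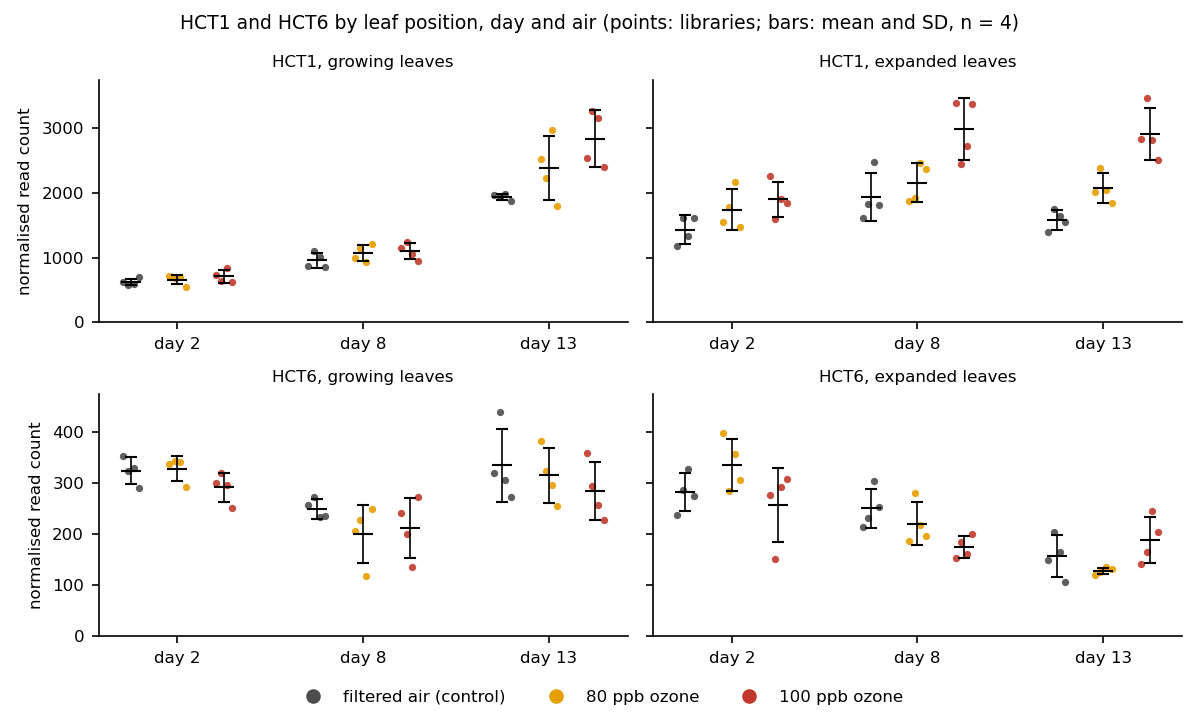
Normalised read count of HCT1 and HCT6 in each library (points) by day and air, growing leaves at the left and expanded leaves at the right, with the mean and SD of 4 libraries in black. HCT1 climbs over the days in growing leaves and is highest at 100 ppb on day 8 in expanded leaves (2988 ± 474), whereas the HCT6 mean in expanded leaves is lower on day 13 than on day 2.

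The levels of HCT1 over all 18 groups spanned 4.83-fold, as the plot of HCT1 and HCT6 shows. In growing leaves the means in control, 80 ppb and 100 ppb air were 619 ± 51.0, 658 ± 73.9 and 707 ± 100 on day 2, 958 ± 117, 1068 ± 128 and 1097 ± 126 on day 8, and 1941 ± 45.1, 2379 ± 496 and 2839 ± 440 on day 13 (SD, n = 4). In expanded leaves they were 1434 ± 222, 1742 ± 315 and 1903 ± 273 on day 2, 1938 ± 378, 2158 ± 305 and 2988 ± 474 on day 8, and 1585 ± 153, 2076 ± 225.5 and 2909 ± 401 on day 13. The means climbed with the ozone level in all 6 settings, although HCT1 was not called at 80 ppb against control in any of them. Nor was it called at 100 against 80 ppb in growing leaves. Ranked by mean, neighbouring groups overlapped at 16 of 17 steps, and a gap without overlap lay only between growing controls of day 8 and growing leaves at 100 ppb on day 2. The top 3 groups were expanded leaves at 100 ppb on days 8 and 13 and growing leaves at 100 ppb on day 13, whose ranges overlapped.

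HCT6 spanned 2.62-fold and had no such order. Its means in growing leaves in control, 80 ppb and 100 ppb air were 325 ± 25.7, 329 ± 24.4 and 292 ± 28.9 on day 2, 249.9 ± 19.1, 201 ± 57.6 and 213 ± 59.4 on day 8, and 335 ± 72.1, 315 ± 53.2 and 284 ± 56.7 on day 13. In expanded leaves they were 282 ± 37.2, 336 ± 51.0 and 257 ± 72.1 on day 2, 251 ± 38.8, 221 ± 42.8 and 176 ± 21.6 on day 8, and 157 ± 40.8, 128 ± 6.26 and 189 ± 45.2 on day 13. All 17 steps between neighbouring groups overlapped. The lowest mean was that of expanded leaves at 80 ppb on day 13.

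**Figure D4:**
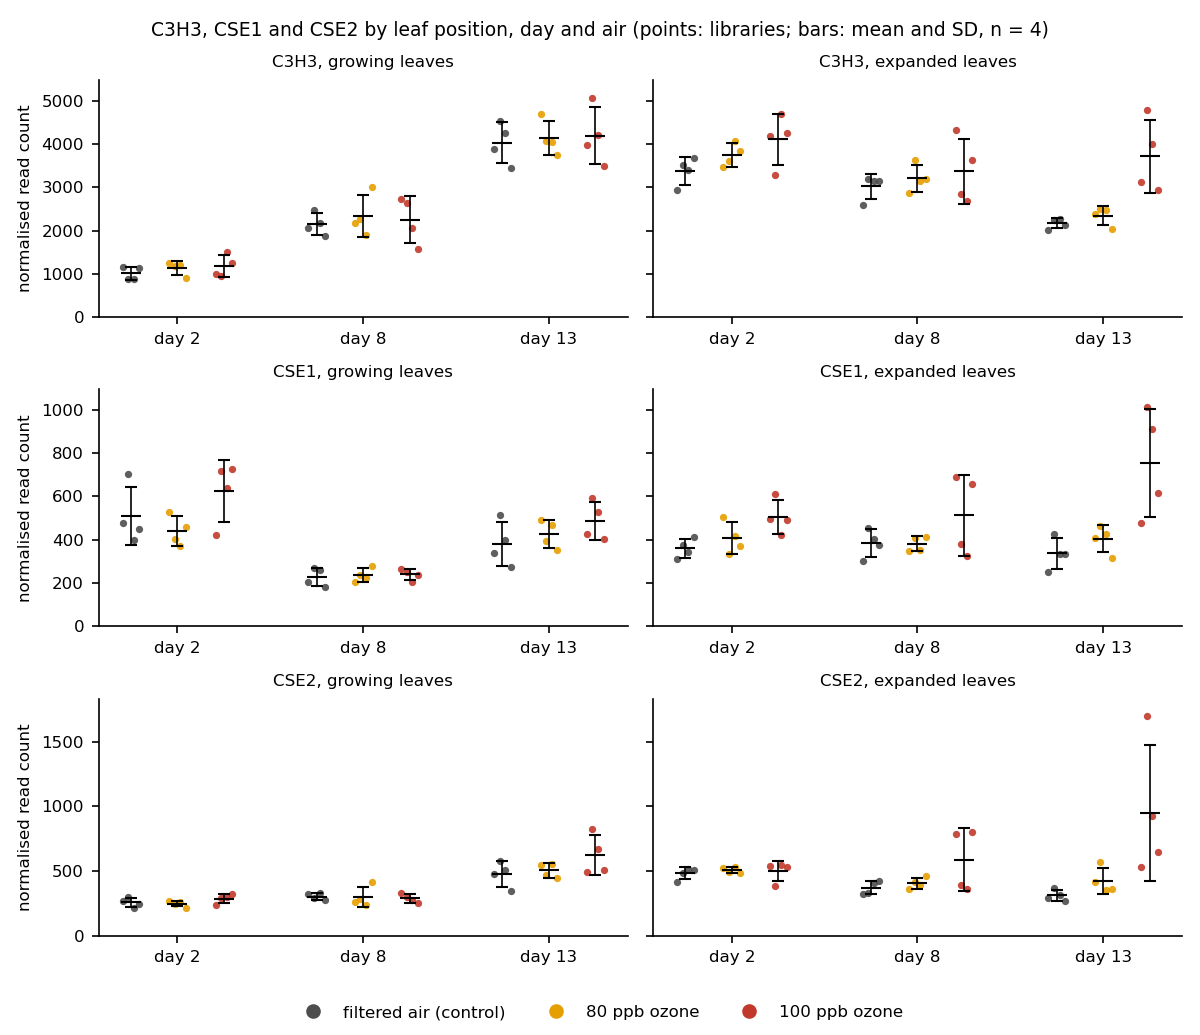
Normalised read count of C3H3, CSE1 and CSE2 in each library (points) by day and air, growing leaves at the left and expanded leaves at the right, with the mean and SD of 4 libraries in black. The libraries of expanded leaves at 100 ppb on day 13 spread widely for CSE2, with replicate 2 at 1699 and the others between 530 and 922.

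C3H3 spanned 4.14-fold over the 18 groups. Its means in growing leaves in control, 80 ppb and 100 ppb air were 1011 ± 151, 1137 ± 157 and 1174 ± 253 on day 2, 2147 ± 253, 2338 ± 476 and 2245 ± 543 on day 8, and 4028 ± 476, 4140 ± 392.1 and 4190 ± 661 on day 13. Expanded leaves had 3377 ± 317, 3745 ± 270 and 4105 ± 598 on day 2, 3025 ± 284, 3210 ± 314 and 3369 ± 756 on day 8, and 2166 ± 116, 2348 ± 210 and 3712 ± 853 on day 13. Neighbours in the ranking overlapped at 15 of 17 steps. The exceptions were expanded controls of day 8 above expanded leaves at 80 ppb on day 13, and growing controls of day 8 above growing leaves at 100 ppb on day 2. The 3 growing groups of day 13 and the expanded groups of day 2 filled 6 of the 7 highest places.

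The esterase genes are drawn in the plot of C3H3, CSE1 and CSE2. CSE1 spanned 3.29-fold, with means in growing leaves in control, 80 ppb and 100 ppb air of 507 ± 134, 439 ± 68.0 and 625 ± 141 on day 2, 229 ± 42.6, 236.5 ± 31.7 and 241 ± 25.6 on day 8, and 380.8 ± 101.1, 425.5 ± 64.8 and 487 ± 88.2 on day 13. In expanded leaves CSE1 averaged 360 ± 44.6, 407.5 ± 73.0 and 504 ± 77.8 on day 2, 384 ± 63.2, 380 ± 34.6 and 512 ± 187 on day 8, and 337 ± 72.0, 404 ± 62.2 and 753 ± 251 on day 13. Its lowest 3 groups were the growing leaves of day 8 in all 3 airs.

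CSE2 spanned 3.82-fold. In growing leaves it averaged 258 ± 35.3, 248.5 ± 22.4 and 287 ± 37.6 in control, 80 ppb and 100 ppb air on day 2, 303 ± 25.7, 299 ± 79.3 and 288.5 ± 32.4 on day 8, and 477 ± 98.0, 505 ± 57.2 and 626 ± 156 on day 13. In expanded leaves the means were 483 ± 45.3, 508 ± 22.1 and 500 ± 78.0 on day 2, 371.5 ± 49.5, 406 ± 41.4 and 587 ± 242 on day 8, and 311 ± 44.3, 423 ± 99.5 and 949.5 ± 526 on day 13. For CSE1 and CSE2 alike all 17 neighbouring steps overlapped, and expanded leaves at 100 ppb on day 13 had the highest mean.

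Leaf position under ozone was compared as well. On day 2 HCT1, C3H3 and CSE2 were lower in growing than in expanded leaves at both ozone levels, as in filtered air. At 100 ppb the differences were −1.43 ± 0.14 for HCT1 (adjusted p = 3.97e-13), −1.82 ± 0.15 for C3H3 (2.75e-15) and −0.79 ± 0.21 for CSE2 (0.00108), and at 80 ppb they were −1.39 ± 0.14 (8.63e-13), −1.73 ± 0.15 (1.61e-14) and −1.03 ± 0.21 (3.44e-05). HCT6 and CSE1 were not called at 100 ppb (0.23 ± 0.20, 0.307, and 0.29 ± 0.21, 0.221) or at 80 ppb (−0.02 ± 0.20, 0.929, and 0.11 ± 0.21, 0.658). Of all tested genes 32.8% were lower at 100 ppb and 31.1% at 80 ppb.

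At 100 ppb on day 8, HCT1 (0.369-fold), C3H3 (0.663-fold), CSE1 (0.495-fold) and CSE2 (0.524-fold) were lower in growing than in expanded leaves (adjusted p = 5.68e-13, 0.00073, 3.34e-05 and 0.000171), as were 31.8% of all tested genes, and HCT6 was not called (0.24 ± 0.20, adjusted p = 0.305). At 80 ppb on that day HCT1 (−1.01 ± 0.14, adjusted p = 2.33e-08), C3H3 (−0.47 ± 0.15, 0.00838) and CSE1 (−0.69 ± 0.21, 0.00494) were lower, as were 24.8% of all tested genes, while CSE2 (−0.47 ± 0.21, 0.0644) and HCT6 (−0.17 ± 0.20, 0.488) were not called. The C3H3 call was lost without growing 80 ppb replicate 3 (0.0524, range 3.18e-05 to 0.0524). CSE2 passed without growing 80 ppb replicate 4 (0.0168), with equal totals (0.00192) and with the compared libraries alone (0.0384, range 0.00192 to 0.188), and HCT6 passed with equal totals (0.0227, range 0.0227 to 0.869).

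On day 13 at 100 ppb C3H3 was not called (0.19 ± 0.15, adjusted p = 0.361), whereas at 80 ppb it was 1.76 times as high in growing leaves (0.82 ± 0.15, adjusted p = 4.4e-05), close to the 1.85 of the controls. HCT6 was higher in growing leaves on day 13 at 100 ppb (0.60 ± 0.20, adjusted p = 0.0152) and at 80 ppb (1.27 ± 0.20, adjusted p = 1.51e-06), and CSE1 was lower at 100 ppb (−0.58 ± 0.21, adjusted p = 0.0254). HCT1 differed by −0.04 ± 0.14 at 100 ppb (0.864) and 0.18 ± 0.14 at 80 ppb (0.334), and at 80 ppb CSE1 differed by 0.07 ± 0.21 (0.816) and CSE2 by 0.27 ± 0.21 (0.336). On day 13, 19.6% of all tested genes were higher and 14.8% lower at 100 ppb, and 18.1% were higher and 13.9% lower at 80 ppb.

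These last calls at 100 ppb moved with single libraries. That of HCT6 was lost without growing replicate 1 (0.0837) or expanded replicate 1 or 2 (0.0761 and 0.0508) and with the compared libraries alone (0.065, range 0.00604 to 0.0837), and that of CSE1 without growing replicate 1 or 4 (0.077 and 0.0912) or expanded replicate 2 or 3 (0.154 and 0.11) and with the compared libraries alone (0.118, range 0.00349 to 0.154). CSE2 (−0.48 ± 0.21, adjusted p = 0.0736) passed by edgeR (0.0219) and DESeq2 (0.0213), and without growing replicate 2 (0.0282) or expanded replicate 1 or 4 (0.00828 and 0.0352, range 0.00828 to 0.621).

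The balance between copies of an enzyme gene was measured as the log2 ratio within each library, with 1 added to each normalised count, so that the scaling of a library enters only through that added 1. The ratio of HCT1 to HCT6 had higher means on later days in control leaves and, against matched controls, at both ozone levels. In growing controls the ratio of HCT1 to HCT6 was 0.93 ± 0.21 on day 2, 1.93 ± 0.15 on day 8 and 2.55 ± 0.28 on day 13, and in expanded controls it was 2.34 ± 0.24, 2.94 ± 0.08 and 3.36 ± 0.34 (SD, n = 4). On day 8 expanded leaves had a ratio of 4.08 ± 0.30 at 100 ppb, against 2.94 ± 0.08 in controls, a difference of 1.14 with no overlap (exact permutation test, two-sided, p = 0.0286). The ratio was also higher without overlap at 100 ppb in expanded leaves on day 2 (2.92 ± 0.37 against 2.34 ± 0.24, exact p = 0.0286) and in growing leaves on day 13 (3.32 ± 0.35 against 2.55 ± 0.28, exact p = 0.0286). In expanded leaves on day 13 it was 3.96 ± 0.45 at 100 ppb and 3.36 ± 0.34 in controls, with overlap (exact p = 0.114). The ratio at 80 ppb was not tested. Its mean there was 4.00 ± 0.18 in expanded leaves on day 13. In growing leaves on day 8 it was 2.45 ± 0.34 at 80 ppb and 2.40 ± 0.50 at 100 ppb. Elsewhere the means at 80 ppb lay between those of controls and of 100 ppb.

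**Figure D5:**
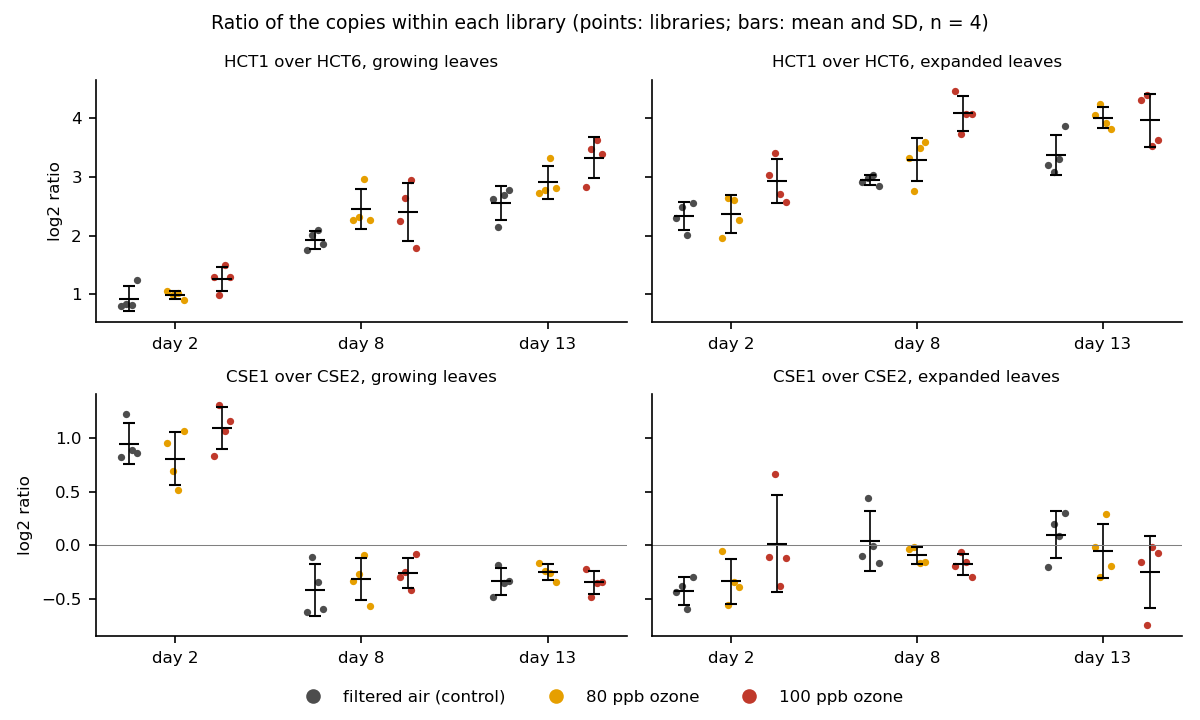
Log2 ratio of HCT1 to HCT6 and of CSE1 to CSE2 within each library (points) by day and air, growing leaves at the left and expanded leaves at the right, with the mean and SD of 4 libraries in black. In filtered air the mean ratio of HCT1 to HCT6 is higher on each later day in both leaf positions. The mean ratio of CSE1 to CSE2 is highest in growing leaves of day 2, at 0.81 to 1.09 across the airs.

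The esterase pair behaved differently, as the plot of the ratios shows. In growing controls of day 2 the log2 ratio of CSE1 to CSE2 was 0.95 ± 0.19, against −0.43 ± 0.13 in expanded controls, with no overlap (difference 1.37, exact permutation test, p = 0.0286). On days 8 and 13 it was −0.42 ± 0.24 and −0.34 ± 0.13 in growing controls and 0.04 ± 0.28 and 0.10 ± 0.22 in expanded controls (exact p = 0.0571 on both days). At 100 ppb the mean of this ratio differed from that of matched controls by −0.35 to 0.44, with overlap in all 6 settings (exact p from 0.0857 to 0.771). Of the 18 exact permutation tests made over both pairs, 7 reached p = 0.0286, the smallest that 4 against 4 libraries allow, 6 of them for HCT1 and HCT6. Adjusted over the 18, the smallest value was 0.0735, so none passed the correction. A test at the smallest possible p can pass it only if many of the others reach that p too. The correction therefore cannot decide on any single ratio, however large its difference.

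Likeness of pattern was measured by Pearson's r over the 18 group means of the log2 values, among genes with a mean of at least 100 normalised reads. All 18 points share their libraries between genes, so r is a description. C3H3 was most like Potri.012G006400 (r = 0.991) and Potri.010G224200 (r = 0.969), and HCT1 most like Potri.001G141500 and Potri.009G095800 (r = 0.985 for both). CSE2 came closest to Potri.010G127000 (r = 0.940) and Potri.007G043500 (r = 0.932). For HCT6 they were Potri.006G211200 (r = 0.953) and Potri.015G059400 (r = 0.873), and for CSE1 they were Potri.004G134700 (r = 0.878) and Potri.006G153800 (r = 0.858).

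Among the 5 members the highest values linked HCT1, C3H3 and CSE2, with r = 0.885 between HCT1 and C3H3, 0.871 between HCT1 and CSE2 and 0.825 between C3H3 and CSE2. Many other genes were closer, since by likeness to HCT1 C3H3 ranked 2551 and CSE2 ranked 2983 among 20642 genes, and by likeness to C3H3 CSE2 ranked 1572. From the side of CSE2, HCT1 ranked 67 and C3H3 ranked 454. HCT6 stood apart from its fellow acyltransferase gene (r = −0.348) and from C3H3 (r = −0.081) and CSE2 (r = −0.096). CSE1 had r = 0.494 with CSE2 and 0.024 with C3H3.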

How the data were processed

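The deposited table gives a signal per gene and library, normalised read counts by name. Per the labels' protocols, mRNA was caught on poly-T beads and sequenced as stranded paired-end libraries. Per the submitters' processing notes, the tools were DESeq2 1.24.0, Subread 1.6.1, featureCounts and TopHat2 2.12, with no roles named. For the genome build, no source used here names one. In each column 100% of the values were whole multiples of a single step (to within 0.01 reads, 0.000592 at most). The deposited signal is thus reads over a size factor per library, and whole reads were recovered from it.

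The members and lists were chosen with earlier results of these data known. The filter asked for values of 10 or more in 4 or more libraries. Genes that met it were tested with limma 3.58.1 in R 4.3.3 on log2(value + 1), with 18 group means over all 72 libraries (residual degrees of freedom: 54) and trended eBayes. P-values are two-sided. Log2 changes on this scale slightly understate those of low counts. All 5 members were tested in every comparison, members called are named in each, and like genes are the 2 with the highest r. The rule called for naming all 5 in each comparison, and some uncalled values are given only as ranges or counts. Copy ratios were compared by exact permutation tests over samples, two-sided. No annotation was used, so other genes of the pathway and leaf markers planned for counting, and all sequences, are not reported. No replicate libraries were identical.

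Alternatives on the recovered reads were DESeq2 1.42.0 and edgeR 4.0.16 with its quasi-likelihood test. At 100 ppb against control in expanded leaves, edgeR called 2718, 5919 and 11748 of the 27780 genes on days 2, 8 and 13, DESeq2 called 3154, 6375 and 12061, and limma called 2316, 5468 and 11413. Within limma they were pseudocounts of 0.25 and 8, filtering at 50 or not at all, robust eBayes, scaling by TMM or to equal totals, fitting the compared libraries alone, leaving out each library and adding a replicate block. The limma fit and the permutation test were tested on simulated data.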

Additional observations from a re-analysis of the deposited data

Results flagged for a closer look

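Results that differed between leaf positions or days were flagged. The CSE2 response to 100 ppb ozone on day 13 was smaller in growing than in expanded leaves by a log2 difference of −1.08 (−1.083 ± 0.30, limma adjusted p = 0.0306), and in expanded leaves it was larger on day 13 than on day 2 by 1.43 (1.426 ± 0.30, adjusted p = 0.000867).

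Single libraries far from the other 3 of their group were flagged in 5 of 90 combinations of gene and group, and chance flags about 1 in 20. In expanded leaves at 100 ppb on day 2, replicate 2 was low for CSE2 (384, others 530.5 to 550.1) and for HCT6 (151, others 277 to 309). In growing leaves at 80 ppb on day 2, replicate 4 was low for HCT1 (548, others 681 to 707) and for HCT6 (292, others 337 to 344). In expanded controls of day 8, replicate 1 was low for C3H3 (2601, others 3140 to 3203).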

How the results depend on the processing

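No called change of a member turned its direction under any alternative. Counts of calls that moved by more than 1.5 times were these. At 100 ppb against control in expanded leaves, DESeq2 called 8 of 15 (main 5). At 100 against 80 ppb in expanded leaves, 3 of 15 were called with equal totals and 3 with the compared libraries alone (main 6). Over the days in control expanded leaves, equal totals gave 3 (main 5). For leaf position by 100 ppb (main 1), TMM scaling, edgeR and DESeq2 each gave 2, and equal totals and the compared libraries alone gave 0 each. With each library left out in turn, the counts were from 5 to 6, 5 to 7, 3 to 5 and 0 to 3 in these families, 7 to 10 between positions at 100 ppb, 1 to 2 for the change of the 100 ppb response over time, and within 1.5 times of the main count elsewhere. At 80 ppb the count was 0 in all settings. Copy ratios kept 7 of 18 under both pseudocounts; without a library their test cannot go below 0.0571, so only differences were computed. The replicate block moved no count beyond 1.5 times (100 ppb in expanded leaves: 6 of 15); it added HCT1 on day 2 at 100 ppb in expanded leaves (adjusted p = 0.0454) and dropped HCT6 on day 13 against day 8 in expanded controls (0.052). The replicate numbers were not treated as pairs, because the labels do not say what they mark, and what they mark was not tested. In 1 of 33 pairs of groups, every same-numbered pair of libraries had deviations from the group means that correlated above 0.1 (single correlations −0.319 to 0.581). With equal totals the median of all genes moved by up to 0.35.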
